A study of Mus musculus with 14 samples.

Results

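The genes described here are the *Xlr* (X-linked lymphocyte-regulated) genes, measured in mouse blastocysts made by somatic cell nuclear transfer (clones) or by *in vitro* fertilization (IVF). Members were all gene probes of the array whose gene name in the files begins with *Xlr*, which gave 8 of 41174 gene probes. They comprised 1 *Xlr3* probe, 3 *Xlr4* probes, 2 *Xlr5* probes and 2 probes of *Xlr*, the founder gene of the family at another place on the X chromosome. The family was chosen by its low signal in these clones relative to these IVF embryos, so its clone-against-IVF values are given as a description, and the counts of calls printed for that contrast support nothing. The arrays held IVF embryos of either sex (3 male and 3 female) and 8 clones, of which 4 came from fusing the cumulus donor cell with an enucleated oocyte (fusion clones) and 4 from injecting the cumulus nucleus (injection clones), all labeled embryonic day 4.0. Cumulus cells are somatic cells around the ovulated oocyte, so these clones are female, and female IVF embryos were the sex-matched control. The labels give neither an allele nor a strain for these samples, and the study's methods name BDF1 as the mouse background and heterozygous *Xist* knockout mice as the source of donor cells, so whether these clones carried the knockout allele is not settled. The extraction text of the labels speaks of tissues of single embryos but names only postimplantation parts, so that the number of blastocysts behind an array is not settled.

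*Xlr* genes encode nuclear proteins related to SYCP3, a component of the axial elements of meiotic chromosomes. *Xlr3*, *Xlr4* and *Xlr5* form a multicopy cluster on the mouse X chromosome, in which the *Xlr3b*, *Xlr4b* and *Xlr4c* copies are known as imprinted genes, expressed mainly from the maternal X in developing and adult brain.

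Most copies within a subfamily are nearly the same sequence. The RefSeq gene table lists 9 protein-coding *Xlr3*, *Xlr4* and *Xlr5* genes and 6 further entries that are not protein-coding. The probes are therefore read below by subfamily more than by single copy. The *Xlr3* probe is named *Xlr3b* in the files, and its accession belongs to *Xlr3c* in the RefSeq table. Of the *Xlr4b* probes, probe 1 also lists an accession of *Xlr4c*. The *Xlr5* probes are *Xlr5c* and one named *Xlr5d* in the files, whose newer accession belongs to *Xlr5a* (called *Xlr5a* below), and both list the same complementary DNA. Both *Xlr* probes also list an accession of *3830403N18Rik*, an *Xlr*-like gene. Signal on any of these probes may come from more than 1 copy, which could not be checked without the probe sequences. Because levels of different probes are not on a common scale, levels are compared below only within a probe.

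Promoter sequences show how alike the copies are. The windows below hold the 150 bases upstream of the annotated start in RefSeq (GRCm38.p6), 5′ to 3′ on the gene's strand, for the copies that the probes name and for 1 further copy each of *Xlr3* and *Xlr4*. Capitals mark matches on either strand to CCAATCAG (a CCAAT-box sequence), GCATGNGCA or TCGCGAGA, letters chosen after the sequences had been read.
Xlr3b: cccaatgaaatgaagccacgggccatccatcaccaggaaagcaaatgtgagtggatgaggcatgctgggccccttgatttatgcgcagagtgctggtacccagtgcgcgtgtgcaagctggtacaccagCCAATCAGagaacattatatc
Xlr3c: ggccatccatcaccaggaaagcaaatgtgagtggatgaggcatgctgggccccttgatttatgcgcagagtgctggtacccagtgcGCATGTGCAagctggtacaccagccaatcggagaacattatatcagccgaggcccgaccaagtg
Xlr4b: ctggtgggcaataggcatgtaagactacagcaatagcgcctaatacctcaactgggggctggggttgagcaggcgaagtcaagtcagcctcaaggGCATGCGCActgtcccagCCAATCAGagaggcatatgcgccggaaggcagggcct
Xlr4c: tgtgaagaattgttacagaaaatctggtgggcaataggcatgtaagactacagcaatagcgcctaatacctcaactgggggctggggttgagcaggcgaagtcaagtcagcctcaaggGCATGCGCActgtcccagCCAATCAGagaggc
Xlr5a: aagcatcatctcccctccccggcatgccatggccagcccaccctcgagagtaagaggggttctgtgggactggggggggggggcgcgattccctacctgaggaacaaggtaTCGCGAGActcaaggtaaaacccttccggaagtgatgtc
Xlr5c: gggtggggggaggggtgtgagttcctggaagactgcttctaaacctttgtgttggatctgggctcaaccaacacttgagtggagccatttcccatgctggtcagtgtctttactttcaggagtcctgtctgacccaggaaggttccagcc
Xlr: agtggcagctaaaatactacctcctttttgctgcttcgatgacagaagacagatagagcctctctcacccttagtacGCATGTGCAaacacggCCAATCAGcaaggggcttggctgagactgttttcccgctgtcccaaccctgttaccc
They lie at chrX:73192029-73192178 (+ strand) for *Xlr3b*, chrX:73265391-73265540 (- strand) for *Xlr3c*, chrX:73214183-73214332 (+ strand) for *Xlr4b*, chrX:73243131-73243280 (- strand) for *Xlr4c*, chrX:73117703-73117852 (- strand) for *Xlr5a*, chrX:73290516-73290665 (- strand) for *Xlr5c* and chrX:53797707-53797856 (- strand) for *Xlr*. Over the aligned part of the 300-base RefSeq windows, *Xlr3b* and *Xlr3c* were 98.1% identical (264 of 269 bases), and *Xlr3a* was 93.7% identical to *Xlr3b* and 95.4% to *Xlr3c*. *Xlr4b* and *Xlr4c* were 98.9% identical (274 of 277 bases), *Xlr4a* was 98.6% and 98.1% identical to them, and *Xlr5a* and *Xlr5b* were 100% identical (255 bases). Between subfamilies, the best alignments gave 57.5% to 68.5%. The *Xlr5c* window was no more alike to its own subfamily, at 63.7% to *Xlr5a* and 66.8% to *Xlr5b*, and the reason was not tested. CCAATCAG was in 6 of the 10 *Xlr* windows of 150 bases (*Xlr*, *Xlr3a*, *Xlr3b*, *Xlr4a*, *Xlr4b* and *Xlr4c*) and in 3.16% of all 32851 promoter windows of that length. GCATGNGCA was in 5 of 10 (*Xlr*, *Xlr3c*, *Xlr4a*, *Xlr4b* and *Xlr4c*) and in 1.57% of all. TCGCGAGA was in 2 of 10 (*Xlr5a* and *Xlr5b*) and in 0.721% of all. A match is a description of the letters, and copies of 1 subfamily are not independent sequences.

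Signals are given as log2 of the normalized processed intensity, with a floor at 4.0 (an intensity of 16) below which values have no order. The share of gene spots well above background (the scanner software's own mark) was 57.4% to 65.2% over the 14 arrays. Each group lay on a slide of its own, so slide and group cannot be told apart in any comparison below. Clones and IVF embryos were also scanned on different scanners with different software versions, so scanner and group cannot be told apart between clones and IVF embryos. No gene spot had a negative processed intensity on the clone arrays, whereas 6790 to 9981 did on each IVF array. Dim values of clones and IVF embryos were therefore not on a like footing, which bears on signals near the floor. None of the 14 arrays went against its label, as *Ddx3y* and *Eif2s3y* of the Y chromosome stood at the floor on all clone and female arrays and at 12.74 or more on the male arrays, while *Xist*, the RNA of the inactive X, was 11.80 to 15.47 in clones, 12.25 to 13.50 in female and 4.0 to 6.60 in male IVF embryos. Epiblast and trophectoderm markers fitted the labeled stage, with 5 of 5 epiblast and 8 of 8 trophectoderm genes well above background on every array. Of 6 primitive endoderm genes, 3 were well above background on every fusion clone array and 4 on every injection clone array. In IVF embryos it was 5 of 6 on every male array and 6 of 6 on every female array. In bulk embryos, fewer cells of a type and less RNA per cell cannot be told apart.

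The *Xlr3* probe, of the subfamily that includes the imprinted *Xlr3b*, had log2 signals of 5.58, 8.52, 8.82 and 5.19 in fusion clones 1 to 4. Injection clones 1 to 4 gave 4.0, 5.46, 8.96 and 8.93, the first being at the floor and not well above background. Male IVF embryos gave 12.23, 13.41 and 14.05, and female IVF embryos 14.62, 12.55 and 13.89. Every clone lay below every IVF embryo of either sex, and in each clone group a pair of clones stood at 8.52 or higher and the other pair at 5.58 or lower. The mean was 7.03 ± 1.90 (SD, n = 4) in fusion clones, 6.84 ± 2.51 (n = 4) in injection clones and 13.68 ± 1.05 (n = 3) in female IVF embryos. The difference from female IVF embryos was -6.65 (SE 1.09) for fusion clones and -6.85 (SE 1.41) for injection clones on the log2 scale, or 101-fold and 115-fold lower, with ranges over the alternatives of -7.25 to -5.90 and -7.56 to -5.87. The fusion value was -7.25 without fusion clone 3 and -6.04 without fusion clone 4, and the injection value -5.90 without injection clone 1, -7.56 without injection clone 3 and -7.54 without injection clone 4. In unnormalized processed intensity, clones spanned 4.62 to 512 and IVF embryos 3752 to 23113.

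The *Xlr4* subfamily was measured by 3 probes, and on all of them the clones were lower but well above background on every array. *Xlr4b* probe 1 stood at 10.09, 11.77, 11.95 and 10.83 in fusion clones 1 to 4. In injection clones it was 9.59, 10.82, 12.80 and 11.71. IVF embryos had 14.87, 15.55 and 15.90 (males) and 16.38, 14.62 and 15.86 (females). Clones and IVF embryos did not overlap, and fusion clone 1 and injection clone 1 were the lowest of their groups. On the IVF arrays this probe's value was scaled up from the low-gain scan, a step the clone arrays did not have and that also applied to *Xlr3c* on female IVF array 1 and to *Xlr5a* on male and female IVF arrays 3.

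Probes 2 and 3 of *Xlr4b*, read from the ordinary scan, also had every clone below every IVF embryo. *Xlr4b* probe 2 gave 7.34, 9.47, 9.57 and 9.29 in fusion clones and 7.52, 8.89, 11.19 and 9.32 in injection clones, against 13.17, 13.22 and 13.55 in male and 13.41, 12.73 and 13.59 in female IVF embryos. *Xlr4b* probe 3 gave 6.32, 8.41, 8.73 and 7.80 in fusion clones and 6.95, 8.18, 10.35 and 8.44 in injection clones, against 11.77, 12.43 and 12.75 in male and 11.88, 11.95 and 12.75 in female IVF embryos. Injection clone 3 was the highest clone on all *Xlr4b* probes and still below the lowest IVF embryo. Fusion clones differed from female IVF embryos by -4.46 (SE 0.60), -4.32 (SE 0.60) and -4.38 (SE 0.61) on probes 1, 2 and 3, or 22.0-fold, 20.0-fold and 20.8-fold. For injection clones the differences were -4.39 (SE 0.83), -4.01 (SE 0.83) and -3.71 (SE 0.78), or 21.0-fold, 16.1-fold and 13.1-fold, and without injection clone 3 they were -4.66 on probe 2 and -4.34 on probe 3.

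Both *Xlr5* probes were below the background mark in a clone of either group. *Xlr5a* stood at 8.40, 5.29, 6.72 and 4.0 in fusion clones 1 to 4 and at 4.0, 8.13, 7.56 and 8.73 in injection clones 1 to 4. In IVF embryos it was 14.04, 14.38 and 14.36 (males) and 13.89, 13.13 and 14.27 (females). Fusion clone 4 and injection clone 1 were not well above background, and no clone came near the IVF range, which was narrow. The difference from female IVF embryos was -7.66 (SE 1.02) in fusion clones and -6.66 (SE 1.16) in injection clones, or 203-fold and 101-fold. These folds depend on the clones at the floor, and the differences ranged over the alternatives from -8.66 (floor of 1) to -6.35 (normexp background correction, a model that keeps dim spots above 0) in fusion clones and from -7.66 (floor of 1) to -5.63 (without injection clone 1) in injection clones. The fusion value was -8.43 without fusion clone 1 and -6.96 without fusion clone 4. Unnormalized intensities spanned 4.02 to 415 in clones and 9833 to 21394 in IVF embryos.

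*Xlr5c* gave 4.56, 5.01, 4.73 and 4.0 in fusion clones and 4.0, 5.30, 5.92 and 6.36 in injection clones. The IVF values were 11.70, 11.53 and 11.37 in males and 11.85, 10.35 and 11.14 in females. All clones lay within 3 log2 units of the floor, and the same 2 clones, fusion clone 4 and injection clone 1, were not well above background. The differences from female IVF embryos, -6.54 (SE 0.41) and -5.72 (SE 0.64), depend on how dim spots are treated, and were -4.64 and -4.32 after normexp background correction.

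The founder gene *Xlr* lies outside the cluster, and on its probes clones and IVF embryos overlapped. *Xlr* probe 1 was well above background on all 14 arrays, at 7.99, 7.07, 8.93 and 7.02 in fusion clones and 5.14, 8.70, 7.55 and 6.49 in injection clones. IVF embryos had 11.47, 9.22 and 9.78 (males) and 10.93, 11.04 and 7.22 (females). Clones were lower on average, but female IVF embryo 3 lay within the range of the clones. On this probe it was the only IVF embryo that did. *Xlr* probe 2 gave 7.14, 5.52, 7.63 and 4.0 in fusion clones, 4.0, 8.99, 7.07 and 4.18 in injection clones, 10.72, 4.0 and 4.19 in male and 10.37, 10.08 and 4.0 in female IVF embryos. It was well above background on 1 of 3 male and 2 of 3 female arrays, so the IVF embryos themselves split into high and low. On probe 1 the difference from female IVF embryos was -1.97 (SE 1.04) in fusion and -2.76 (SE 1.25) in injection clones, and on probe 2 it was -2.08 (SE 1.75) and -2.09 (SE 2.02). Without female IVF embryo 3 these became -3.23 and -4.01 on probe 1 and -4.15 and -4.16 on probe 2. Without female IVF embryo 1 they were -1.37 and -2.16 on probe 1 and -0.97 and -0.98 on probe 2.

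**Figure D1:**
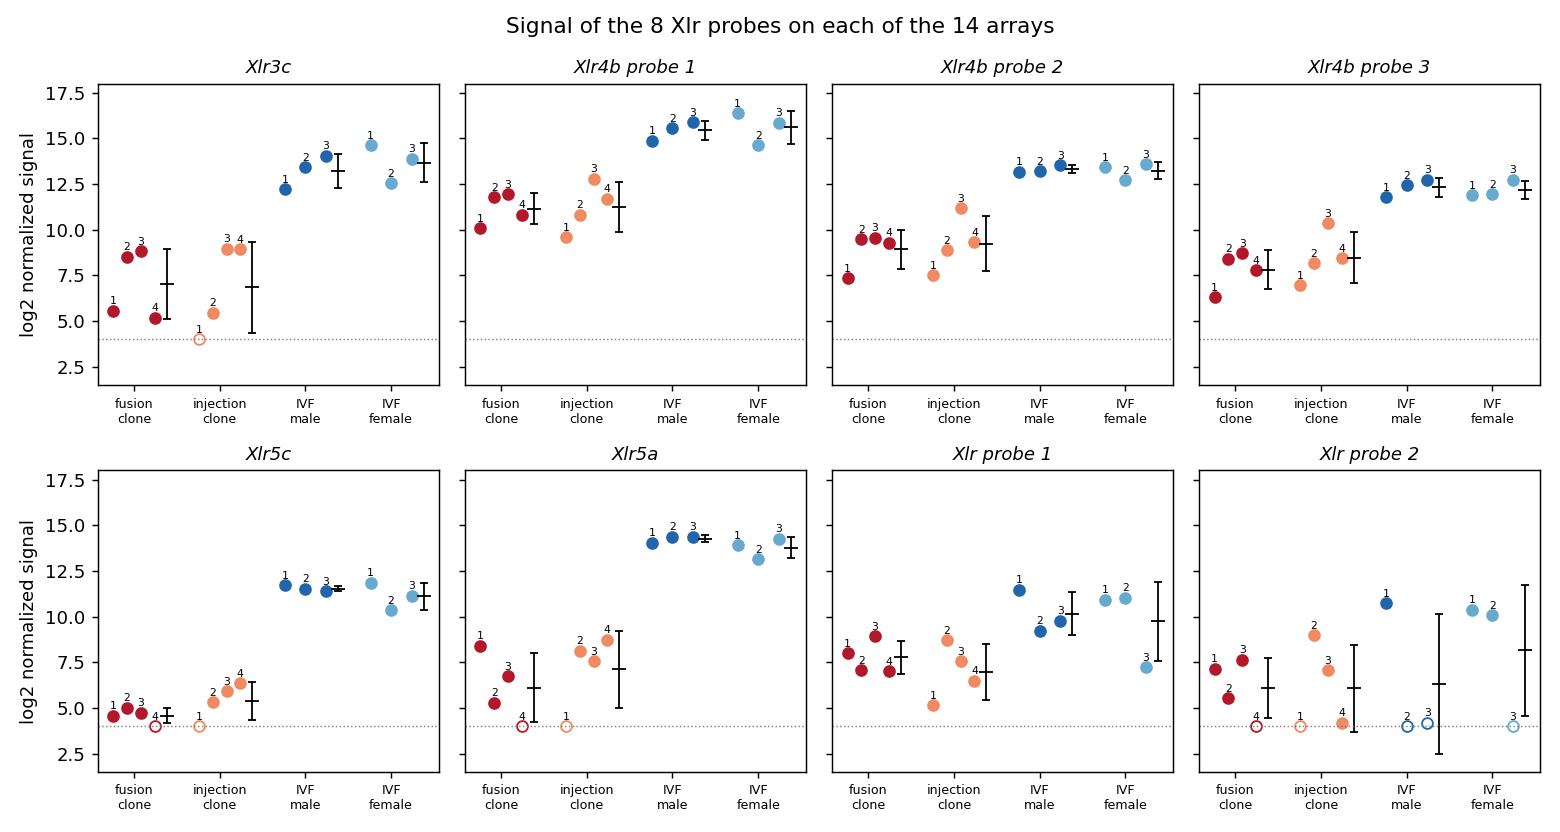
Log2 normalized signal (y axis) of the 8 probes on each array, by group (x axis), with replicate numbers above the points, filled points for arrays well above background, open points for the others, black bars for the group mean ± SD and a dotted line at the floor of 4.0. On the 6 *Xlr3*, *Xlr4* and *Xlr5* probes the highest clone lies below the lowest IVF embryo, whereas on both *Xlr* probes the groups overlap.

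Over the cluster, 6 of 6 *Xlr3*, *Xlr4* and *Xlr5* probes had every clone of either kind below every female IVF embryo, and 0 of 2 *Xlr* probes did. On both *Xlr* probes embryo 3 was the only female IVF embryo within the range of the clones. Among all probes tested, the fusion clones lay wholly below the female IVF embryos for 15.4% and the injection clones for 12.5%. Of the 8 *Xlr* probes, limma's moderated test over all probes called 6 lower in fusion clones (9.49% of all 32458 probes were called in either direction and 5.17% lower), namely the 6 of the cluster. In injection clones it called 3 of 8, *Xlr4b* probe 1, *Xlr5a* and *Xlr5c* (3.67% of 32840 probes in either direction and 2.14% lower). The study's methods name a 5% level and a 2-fold filter without naming an adjustment, so the level was taken here as unadjusted. At that threshold 6 of 8 were lower in either clone group, beside 8.59% and 7.08% of all probes. Since this contrast chose the family, nothing is read from these counts. The injection count was 0 to 2 on leaving out any 1 array, 0 without injection clone 2 or without female IVF embryo 3. Both comparisons share the female IVF arrays. The median difference of the 6 cluster probes was -5.50 in fusion and -5.05 in injection clones, beside -0.12 and -0.08 over all probes and -0.20 and -0.18 over the 942 and 955 other probes of X-linked genes.

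**Figure D2:**
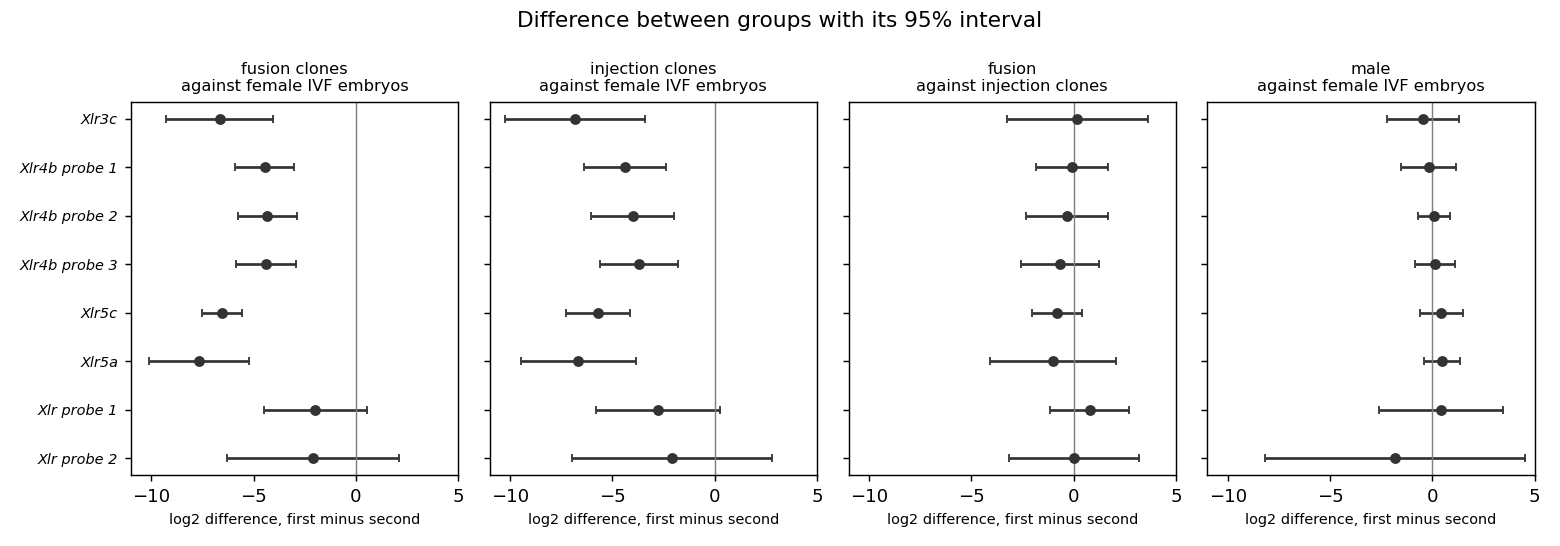
Log2 difference between groups (x axis, first minus second) with its 95% interval for each probe (y axis) in the 4 comparisons. In both comparisons of clones with female IVF embryos the 6 cluster probes lie between -7.66 and -3.71, and in the other comparisons each interval spans 0. The family was chosen by its low signal in clones, so the intervals against female IVF embryos are a description.

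Whether the way of nuclear transfer changed the level of these genes was asked by comparing fusion with injection clones, a contrast that did not choose the family. None of the 8 probes differed (limma, adjusted p 0.814 to 1 over the 8 probes, n = 4 and 4), and none had an unadjusted p below 0.05. Over all 32303 probes 0% were called (0 probes) and 6.17% had an unadjusted p below 0.05. The intervals stayed wide. For *Xlr3c* the difference, fusion minus injection, was 0.19 with a 95% interval of -3.23 to 3.62, and for *Xlr5a* it was -1.0 (-4.10 to 2.09). The narrowest was that of *Xlr5c*, at -0.82 (-2.04 to 0.40). For *Xlr4b* probes 1, 2 and 3 the differences were -0.07 (-1.83 to 1.69), -0.31 (-2.32 to 1.70) and -0.67 (-2.59 to 1.26). *Xlr* probes 1 and 2 differed by 0.79 (-1.14 to 2.71) and 0.01 (-3.16 to 3.18). These data therefore leave room for a several-fold difference in either direction on most probes.

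Male and female IVF embryos were compared because the genes are X-linked and male embryos carry a single X. None of the 8 probes was called (limma, adjusted p 0.724 to 0.939, n = 3 and 3), and none had an unadjusted p below 0.05, while 0.0593% of 32046 probes were called and 7.76% had an unadjusted p below 0.05. With the replicate number as a block, which paired these samples, 0 probes of the array were called and none of the *Xlr* probes. As not even the Y-linked *Ddx3y* and *Eif2s3y* were called in that fit, the lack of an *Xlr* call in it says little. The p-values above and the intervals below are from the fit without this block, so they leave the pairing out. Males minus females gave 0.49 (95% interval -0.39 to 1.37) for *Xlr5a*, 0.42 (-0.62 to 1.47) for *Xlr5c* and -0.45 (-2.21 to 1.30) for *Xlr3c*. The *Xlr4b* probes gave -0.18 (-1.53 to 1.17), 0.07 (-0.69 to 0.84) and 0.13 (-0.84 to 1.09), probe 2 having the narrowest interval in the family. The median over the 6 cluster probes was 0.10, and over the 933 other probes of X-linked genes it was -0.28. Both *Xlr* probes had intervals of over 6 log2 units between sexes, set by the split among IVF embryos given above.

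Most *Xlr* probes varied more among embryos of 1 group than the median probe of like level that was well above background on every array. For *Xlr3c* the SD among fusion clones was 1.90. The median SD was 0.67 over the 2009 probes of like mean level (within 0.5 log2 units) that were well above background on all 4 arrays. Among injection clones it was 2.51, beside 0.71 over 1990 probes. For *Xlr5a* the SDs were 1.89 and 2.12, beside 0.61 and 0.71. *Xlr5c*, near the floor, had 0.43 and 1.03, beside 0.31 and 0.49. Unlike the comparison probes, *Xlr3c* in injection clones and both *Xlr5* probes in either clone group were not well above background on 1 array. That array stood at the floor, so these SDs are set beside probes chosen by a stricter rule. IVF embryos varied as well. *Xlr3c* had an SD of 0.92 in males and 1.05 in females, beside 0.35 and 0.28 over probes of like level, and *Xlr4b* probe 1 had 0.53 and 0.90, beside 0.28 and 0.23. *Xlr5a* had 0.19 and 0.58, beside 0.31 and 0.28. The SD lay below that of like probes in males for *Xlr5a*, *Xlr5c* (0.16 beside 0.43) and *Xlr4b* probe 2 (0.21 beside 0.35).

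The residual signal of the *Xlr4* and *Xlr3* probes went up and down together from array to array. After the group means had been taken out, *Xlr4b* probe 1 correlated with probes 2 and 3 at r = 0.91 and 0.88 over the 14 arrays, and *Xlr3c* correlated with probes 1, 2 and 3 at r = 0.92, 0.76 and 0.77. *Xlr5c* followed *Xlr3c* (r = 0.82) more than *Xlr5a* did (r = 0.46), and *Xlr5a* and *Xlr5c* gave r = 0.68. *Xlr5a* and the *Xlr4b* probes gave r = 0.13 to 0.34. Both *Xlr* probes moved together (r = 0.93) but hardly with *Xlr3c* or *Xlr4b* (r = -0.11 to 0.12). These are descriptions over points that share arrays, and probes that share transcripts are bound to correlate. Single clones show the same. Fusion clone 1 had the lowest *Xlr4b* values of its group, differing from the female IVF mean by -5.90 to -5.53, yet the highest *Xlr5a* value, with -5.36. Injection clone 1 was the lowest injection clone on every member, and its array had 59.8% of spots well above background, the lowest share among injection clones. Fusion clone 4, at the floor for both *Xlr5* probes, had 57.4%, the lowest of the 14 arrays. Female IVF embryo 3, with 58.5%, and male IVF embryo 2, with 58.9%, had *Xlr3c* at 13.89 and 13.41. Fusion clone 1 had 60.4%. The part of array quality in the low values of these clones was not tested.

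**Figure D3:**
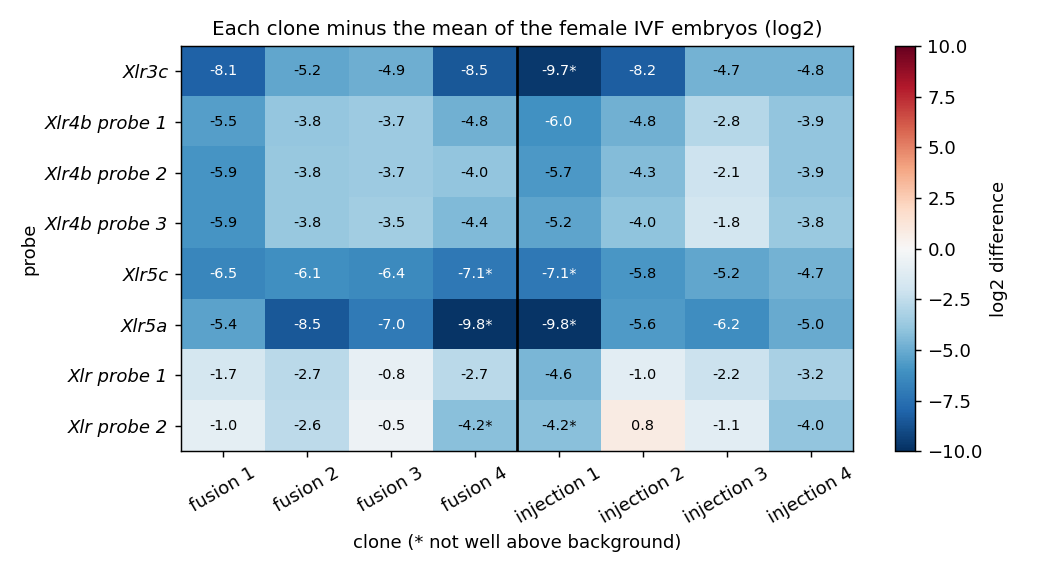
Log2 difference of each clone (x axis) from the mean of the 3 female IVF embryos for each probe (y axis), with blue for lower and red for higher and an asterisk where the clone was not well above background. The *Xlr4b* and *Xlr3c* values are lowest in fusion clone 1 or 4 and injection clone 1, while *Xlr5a* is highest in injection clone 4 and fusion clone 1.

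Genes lying among or beside the cluster copies were taken from the RefSeq order along the X chromosome, as 4 protein-coding genes between the first and last *Xlr3*, *Xlr4* or *Xlr5* copy and 10 on either side. Of these 24 genes 20 had a probe. In fusion clones 3 of the 15 tested were lower than in female IVF embryos and 0 higher (background 5.17% lower), and in injection clones 2 of 16 were lower and 0 higher (background 2.14% lower). Medians were -0.49 and -0.70, beside -0.12 and -0.08 over all probes. Neither fusion against injection clones nor males against females gave a call among them.

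The neighbour with the clearest fall was *DXBay18*, which lies between *Xlr5a* and *Xlr5b* and does not belong to the *Xlr* family by name. Its brighter probe stood at 4.0, 4.15, 5.20 and 5.68 in fusion clones and at 4.0, 4.0, 5.93 and 5.02 in injection clones. The IVF embryos had 12.38, 11.83 and 11.30 (males) and 11.37, 10.63 and 11.03 (females). Every clone lay below every IVF embryo, and 2 of 4 clones in either group were not well above background, so the size of the gap depends on the treatment of dim spots. The difference from female IVF embryos was -6.25 (SE 0.47, limma adjusted p = 0.00171) in fusion and -6.27 (SE 0.53, adjusted p = 0.00942) in injection clones. The differences ranged over the alternatives from -6.56 to -4.40 and from -6.67 to -4.41. In 17 of 18 alternatives it stayed called in either clone group, with adjusted p from 0.000112 to 0.0974 in fusion clones and from 0.00016 to 0.158 in injection clones, the exception being the replicate block. Its second probe was at the floor in all fusion clones and at 4.69 or lower in injection clones, and at 9.68 to 10.75 in IVF embryos.

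The other genes next to *Xlr* copies behaved in different ways. *Spin2d*, between *Xlr5b* and *Xlr3b*, was near the floor in all groups, with means of 4.0 to 4.29. *F8a*, between *Xlr4b* and *Xlr4c*, a gene that in humans lies within an intron of the factor VIII gene, stood at 8.60, 7.29, 7.61 and 7.48 in fusion clones, 7.10, 8.33, 10.05 and 6.80 in injection clones, 9.81, 9.55 and 9.92 in male and 9.98, 9.28 and 9.45 in female IVF embryos. Fusion clones were lower by 1.83 (SE 0.37, adjusted p = 0.0333), a call made in 8 of 18 alternatives, and among the arrays left out singly it held only without fusion clone 1, with adjusted p of 0.0203 to 0.13 over all alternatives. Injection clones overlapped the IVF embryos through injection clone 3, which was also the highest clone for *Xlr4b* (difference -1.50, SE 0.81, adjusted p = 0.327). *Zfp275*, a zinc finger gene just beyond *Xlr5c*, had every clone below every female IVF embryo, with differences of -2.99 (SE 0.82, adjusted p = 0.0705) and -2.37 (SE 0.57, adjusted p = 0.0759). The male IVF values of *Zfp275*, 8.37 to 8.99, overlapped those of the clones, 4.83 to 8.67. The remaining called neighbour, *Gabra3*, a GABA receptor subunit gene named here after its values were seen, was dim and differed by -1.24 (SE 0.22, adjusted p = 0.0235) and -1.29 (SE 0.23, adjusted p = 0.0432), calls that held in 11 and 6 of 18 alternatives. Male IVF embryos, at 4.14 to 4.91 for *Gabra3*, lay in the range of the clones (4.0 to 4.88), and males minus females gave -1.18 (SE 0.27, adjusted p = 0.446). On leaving out 1 array, the number of lower neighbours was 1 to 3 in fusion clones (1 without fusion clone 2, female IVF embryo 1 or female IVF embryo 3) and 1 to 2 in injection clones (2 only without injection clone 4).

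**Figure D4:**
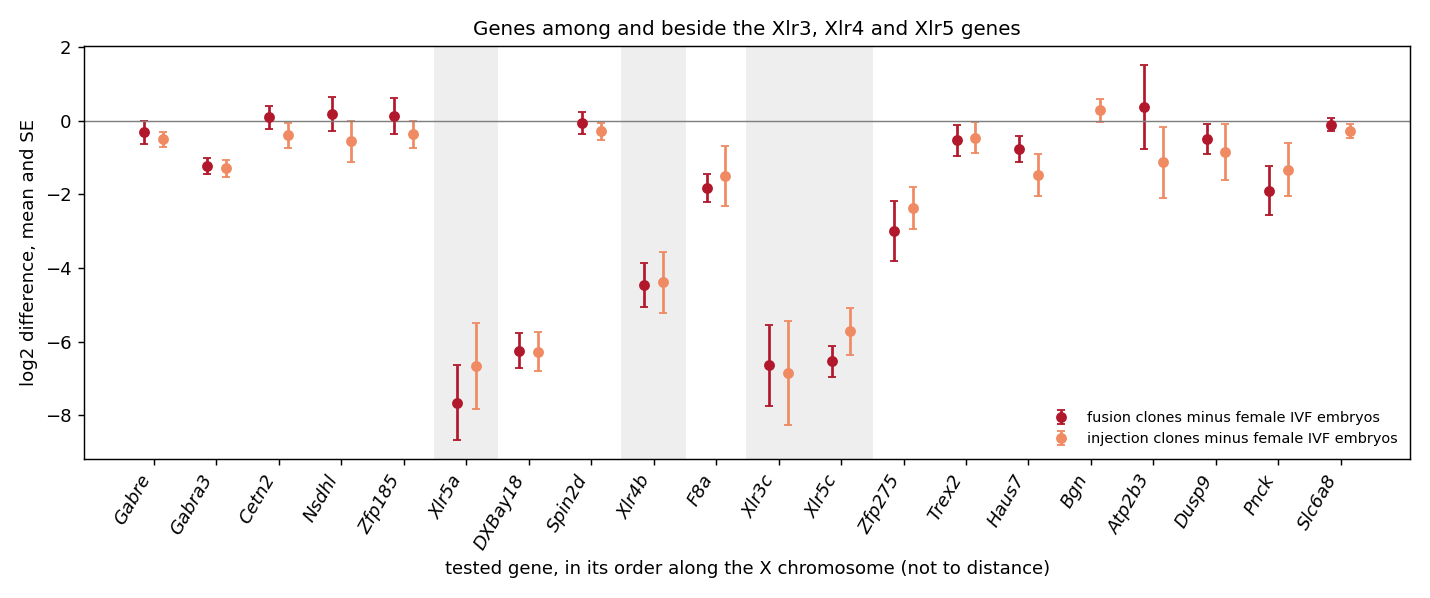
Log2 difference from female IVF embryos (y axis, estimate ± SE) of the tested genes among and beside the cluster, in their order on the X chromosome (x axis, not to distance), with grey bands for *Xlr* genes. *Xlr5a*, *DXBay18*, *Xlr4b*, *Xlr3c* and *Xlr5c* lie at -4.39 or below on the probes drawn, and the genes to the left of *Xlr5a* lie between -1.29 and 0.19.

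Relatives of the family outside the cluster went in different directions. *Sycp3*, whose product builds the axial elements of meiotic chromosomes, was well above background on all 14 arrays, with means of 11.88 ± 0.49 in fusion clones, 11.84 ± 0.47 in injection clones, 10.19 ± 1.39 in male and 11.09 ± 0.60 in female IVF embryos (SD, n = 4, 4, 3 and 3). Its differences from female IVF embryos, 0.78 (SE 0.38, adjusted p = 0.248) and 0.75 (SE 0.38, adjusted p = 0.295), were not called. *Slxl1*, a *Sycp3*-like X-linked gene, averaged 4.61 and 4.62 in fusion and injection clones and 6.86 ± 2.48 in female IVF embryos (adjusted p = 0.268 and 0.305). *Sly*, a related gene of the Y chromosome, was at the floor on every array. The *Xlr*-like *3830403N18Rik*, added after its values were seen, was lower by 2.30 in fusion clones (SE 0.36, adjusted p = 0.0178) and gave -2.11 in injection clones (SE 0.43, adjusted p = 0.0546), with every clone (4.99 to 6.51) below every female IVF embryo (7.28 to 8.42) but not below male IVF embryo 2, at the floor. The fusion call held in 14 of 18 alternatives, which ranged from -2.57 to -1.32. A further relative, *1700013H16Rik*, was dim, with group means of 4.0 to 4.95, and was not called. Its differences from female IVF embryos were 0.07 (SE 1.19, limma adjusted p = 0.98) in fusion and -0.89 (SE 0.67, adjusted p = 0.485) in injection clones.

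Other transcripts were ranked by how closely their array-to-array deviations from the group means followed the mean of the 8 *Xlr* probes, over 21418 probes and 14 arrays. This mean was unscaled, and *Xlr* probe 2 had the largest SD of the family in male (3.83) and female (3.60) IVF embryos. The profile is therefore not that of the *Xlr3*, *Xlr4* and *Xlr5* cluster alone. The 5 most alike were *Tfcp2l1*, a transcription factor of pluripotent cells (r = 0.94), *Trim45* (r = 0.93), the X-linked *Phf6* (r = 0.92), *Akr1c12* (named *Akr1c13* in the files, r = 0.92) and *Ddx18*, an RNA helicase (r = 0.92). They were picked as the highest of many and are a description. *Tfcp2l1* had group means of 12.87 (fusion) and 12.90 (injection) in clones and 13.08 (male) and 13.23 (female) in IVF embryos, so the likeness is in the deviations within groups and not in the gap between clones and IVF embryos.

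Histone H3 lysine 9 and DNA methylation genes were counted beside the family because these marks silence many germline genes in somatic cells. Of 16 tested in fusion clones 4 were lower (*Setdb1*, *Dnmt1*, *Dnmt3b*, *Kdm3b*) and 1 higher (*Dnmt3a*), and of 17 in injection clones 3 were lower (*Setdb1*, *Dnmt1*, *Dnmt3b*) and 0 higher (background 5.17% lower in fusion and 2.14% in injection clones). *Setdb1*, a histone H3 lysine 9 methyltransferase, differed by -2.0 (SE 0.26, adjusted p = 0.0104) and -1.70 (SE 0.27, adjusted p = 0.0371). *Dnmt3b*, a *de novo* DNA methyltransferase, differed by -2.14 (SE 0.29, adjusted p = 0.0122) and -2.03 (SE 0.22, adjusted p = 0.0179). *Dnmt1*, the maintenance methyltransferase, differed by -1.40 (SE 0.30, adjusted p = 0.039) and -1.48 (SE 0.25, adjusted p = 0.0405), and *Dnmt3a* by 2.42 (SE 0.44, adjusted p = 0.0255) and 0.97 (SE 0.51, adjusted p = 0.319). The lower count was 2 in fusion clones on leaving out any 1 array, and 0 to 3 in injection clones, with 0 without injection clone 2 or 3 and 1 without injection clone 1 or any 1 female IVF embryo.

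Cell type markers called between clones and female IVF embryos are given beside the share of all probes called. That share was 9.49% in fusion and 3.67% in injection clones in either direction, and nothing is read from the counts. Of 6 primitive endoderm genes, *Sox7* was lower in fusion clones (difference -6.39, SE 1.01, adjusted p = 0.018) and 0 in injection clones were called. Their median difference was -1.82 in fusion clones (5 of 6 negative) and -2.54 in injection clones (6 of 6 negative), with *Gata4* at -2.54 (SE 1.11, adjusted p = 0.202) and -3.57 (SE 0.79, adjusted p = 0.0643) and *Sox17* at -3.09 (SE 2.64, adjusted p = 0.485) and -4.79 (SE 2.53, adjusted p = 0.319). Their summed level, carried by the bright *Gata6* and *Dab2*, was 17.29 to 17.87 in fusion clones, 17.13 to 17.61 in injection clones, 17.35 to 18.07 in male and 17.75 to 18.08 in female IVF embryos. Of 8 trophectoderm genes 1 was lower in either clone group, *Elf5* in fusion clones (-2.96, SE 0.44, adjusted p = 0.016) and *Id2* in injection clones (-1.12, SE 0.18, adjusted p = 0.0396), with summed levels of 19.56 to 19.90, 19.38 to 19.81, 19.98 to 20.04 and 19.88 to 20.13 in the same order. Of 5 epiblast genes only *Zfp42* in injection clones was called (0.93 higher, SE 0.16, adjusted p = 0.0437), and sums were 16.54 to 16.87, 16.59 to 17.15, 16.42 to 16.55 and 16.20 to 16.71. No cumulus gene was called in 7 tested in fusion and 6 in injection clones, and 4 of the 10 cumulus genes in fusion and 5 in injection clones were well above background on no array. *Ptx3*, *Tnfaip6* and *Inhba* were at the floor on all clone arrays, while *Amhr2*, well above background on every array, gave 1.35 (SE 0.53, adjusted p = 0.165) and 1.77 (SE 0.45, adjusted p = 0.0839), and *Cyp19a1* averaged 4.86 and 6.59 in fusion and injection clones and 4.62 in female IVF embryos. Cumulus sums were 10.10 to 11.44, 10.72 to 11.36, 9.77 to 11.13 and 9.90 to 10.09. The part of cell type composition in the *Xlr* differences was not tested.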

How the data were processed

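Total RNA of 14 blastocyst samples (8 clones and 6 IVF embryos) was amplified and hybridized to 1-color Agilent whole mouse genome arrays. The authors deposited processed and raw median intensities of each spot from Feature Extraction (10.5.1 in the submitters' processing notes), not normalized between arrays, and a table of log2 values, used as an alternative (0 columns without a sample). Their GeneSpring comparisons were not used. The 1639 control spots were left out and outlier spots set to missing. Processed intensities were quantile-normalized, floored at 16, converted to log2 and averaged per probe. Probes that were well above background on 1 or more arrays in a comparison were tested with limma 3.58.1 (R 4.3.3, lmFit and eBayes), with Benjamini-Hochberg adjustment over all of them and a call at an adjusted p below 0.05. The test was tried on simulated data.

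Genes were named through RefSeq (GRCm38.p6), which matched 33483 of 41174 probes (81.3%), and given by their brightest probe. Members, gene lists and tests were chosen with earlier results of these data known. Other genes named are *Sycp3* relatives, genes beside the cluster, the 5 most alike genes, sex-check genes, chromatin genes (4 with values) and cell type markers. Promoters were aligned with Biopython 1.88 and figures drawn with matplotlib 3.10.9 in Python 3.11.15.

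Male and female IVF embryos of the same number deviated together (r = 0.109, 0.129 and 0.11), so the numbers, given by the labels, were taken to pair them. In the other comparisons they did not. The labels do not say that samples came from separate matings or cultures, so p-values measure the spread between these samples. The number of arrays limits the precision.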

Additional observations from a re-analysis of the deposited data

Results flagged for a closer look

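Among fusion clones, *Xlr4b* probe 2 was 7.34 in fusion clone 1 and 9.29 to 9.57 in the others, so that this clone's gap to the nearest of the others made up 0.874 of the group's range, above Dixon's 95% critical value for 4 samples. It was the only gap of that size among the 16 clone groups examined (8 probes in fusion and in injection clones). Chance alone gives about 1 in 20 groups, so 1 among 16 is near what chance gives. The same clone was the lowest fusion clone on *Xlr4b* probes 1 and 3, at 10.09 and 6.32. Those probes are not independent of probe 2 (r = 0.91 and 0.96 after the group means had been taken out). Groups of 3 IVF embryos were not examined in this way.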

How the results depend on the processing

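The differences of the 8 *Xlr* probes between clones and female IVF embryos stayed negative under every alternative run. Because this contrast chose the family, neither that sign nor the median given next is support for it. The median over the 8 probes, -4.42 in fusion and -4.20 in injection clones, moved by less than the spread between arrays, with -4.77 to -3.99 and -4.79 to -3.64 on leaving out 1 array. The number of probes called, in the contrast that chose them and so no support for it, moved more. In fusion clones it was 6, 5 to 6 on leaving out 1 array (5 without fusion clone 1 or female IVF embryo 1), and 0 with the replicate block. In injection clones it was 3. It rose to 6 with normexp background correction, with the filter for probes well above background on every array of a group and with all 4 groups in one fit. It was also 6 at the threshold of the study's methods (5% level, taken as unadjusted, and 2-fold). It was 1 with the deposited log2 table, with a floor of 1 and with no filter, and 0 with the replicate block. Leaving out 1 array gave 0 to 2. The replicate numbers pair the samples only for males against females. There 0 *Xlr* probes were called without the block and 0 probes of the array with it, so the calls cannot show what the pairing does. Fusion against injection clones and males against females kept 0 called *Xlr* probes under all alternatives, with medians of -0.82 to 0.34 and -0.09 to 0.18 on leaving out 1 array. Of 18 alternatives, fusion calls were kept in 8 for *F8a*, 11 for *Gabra3*, 7 for *Dnmt1*, 6 for *Kdm3b*, 12 for *Dnmt3a*, 14 for *3830403N18Rik* and 17 for *Setdb1* and *Dnmt3b*, and injection calls in 6 for *Gabra3*, 8 for *Setdb1* and *Dnmt1* and 15 for *Dnmt3b*, while *Zfp275* was called in 4 of 18 for fusion and 2 of 18 for injection clones. Among all probes, fusion clones against female IVF embryos had 3079 called, with 0 (replicate block) to 4332 (well above background on every array of a group), injection clones 1205, with 0 to 3098 (all 4 groups in one fit), fusion against injection clones 0, with up to 11 (floor of 1), and males against females 19, with 0 to 205 (all 4 groups in one fit). The cause of these changes was not tested. A slide block could not be fitted, as each slide holds 1 group. Values at the floor have no order, so the dimmest clones limit what *Xlr5c* and *Xlr5a* can show.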
